A study of Mus musculus with 8 samples.

Results

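Messages of the mitochondrial respiratory chain and of ATP synthase were followed in mouse leukaemia stem cells after knockdown of Itgb3, the gene of integrin beta 3. The members were all array probes whose annotated gene symbol begins with Ndufa, Ndufb, Ndufc, Ndufs, Ndufv, Uqcr, Cox4 to Cox8 or Atp5, or is Sdha, Sdhb, Sdhc, Sdhd, Cyc1 or Cycs. This rule found 139 probes of 89 genes, among 45281 probes and 19057 genes with a symbol on the array. By complex there were 44 genes of complex I, 4 of complex II, 8 of complex III, 16 of complex IV, 16 of ATP synthase (complex V) and the gene of cytochrome c. The symbols also take in assembly factors such as the Ndufaf genes and a pseudogene, Ndufs5-ps, and they leave out the subunits encoded in mitochondrial DNA, for which 0 of 13 genes had a probe under their current symbols.

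In the inner mitochondrial membrane, complex I takes electrons from NADH and complex II from succinate, both pass them to ubiquinone, and complex III hands them on to cytochrome c. Complex IV, cytochrome c oxidase, gives them to oxygen. Complexes I, III and IV pump protons during this transfer, and ATP synthase uses the proton gradient to make ATP. Each of complexes I, III, IV and V is assembled from nuclear and mitochondrially encoded subunits, whereas complex II is encoded in the nucleus alone. Human acute myeloid leukaemia stem cells are known for their reliance on oxidative phosphorylation.

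All cells carried an MLL-AF9 leukaemia on a C57BL/6 Actin-dsRed background and came from the bone marrow of mice that had received a quaternary transplant. They were sorted as dsRed+ cells low in Hoechst stain that were high for c-kit and FcyRII and positive for CD34. The groups were cells with the Itgb3-17 hairpin (3 arrays), cells with the Itgb3-20 hairpin (2 arrays) and cells with a control hairpin, directed at luciferase (Luc control, 3 arrays). The series asked what Itgb3 knockdown does to expression in primary leukaemia cells. Whether arrays within a group stem from separate mice is not stated in the labels, and p-values therefore measure only the spread among these samples, possibly a technical one.

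Each of the 8 arrays had 92 to 99 of the 139 member probes above background (detection p under 0.05). The single Itgb3 probe was above background on 0 of the 8 arrays, so the knockdown itself could not be checked here. Precision is limited by how few arrays there are. A probe was tested where it was above background on at least 2 arrays, which left 102 member probes of 74 genes and 13315 probes in all. Values are log2 levels after background correction and quantile normalization, and a difference is on the same log2 scale. A probe is called, and said to rise or fall, where its limma p adjusted over all 13315 tested probes is under 0.05. The 15 genes without a tested probe were Ndufb2, Ndufb4, Ndufb9, Ndufb11, Ndufs1, Ndufaf6, Sdha, Sdhd, Uqcrfs1, Cox4i2, Cox7b2, Cox8b, Cox8c, Atp5e and Atp5k. They include the catalytic flavoprotein of complex II (Sdha) and the Rieske iron-sulfur protein of complex III (Uqcrfs1). In bulk RNA, fewer cells of a type and less RNA per cell cannot be told apart.

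With both hairpins averaged and set against the Luc control, the respiratory chain messages moved in both directions. Of the 102 tested member probes, 16 rose (15 genes) and 14 fell (14 genes), 15.7% and 13.7% of them. Over all 13315 tested probes 8.93% rose and 7.84% fell. Among probes above background on all 8 arrays, where all called members lay, 19.05% of 84 members rose and 16.67% fell, against 14% and 12.6% of all 6215 such probes. The 5 knockdown arrays lay above all 3 Luc control arrays for 17 member probes and below them for 21, and over all tested probes this held for 11.5% and 8.87%. The rises and falls balanced: the median difference of the members was 0.01, beside 0.02 for all tested probes, while the median of the absolute difference was 0.28 for the members and 0.21 for all tested probes. Spread was also read array by array. The deviation of the tested members from the Luc control mean had an SD over members of 0.422 to 0.543 on the 5 knockdown arrays, against 0.177 to 0.191 on the 3 Luc control arrays that made up that mean. Arrays that make up a mean lie nearer to it by construction, and no such SD was taken over all tested probes.

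The balance depended on the scaling. With the arrays scaled to a common median in place of quantile normalization, all 16 rises stayed called and 0 of the 14 falls did, although all 14 kept their negative sign and lay below the median of all tested probes, from Ndufc1 at -0.25 to Ndufc2 at -0.99 relative to it (Atp5pb at -0.85). In that setting 17 member probes were called higher and 0 lower by limma (33 higher and 5 lower at an unadjusted p under 0.05). Over all tested probes the calls were 1327 higher and 79 lower in that setting, against 1189 and 1044 with quantile normalization, so falls were lost across the array. The median difference was 0.26 for the members and 0.15 for all tested probes. With no background correction 23 members were called lower (1065 of all tested probes). Without Luc control replicate 1 the number of rises was 10 (795 of all tested probes). Of the 30 calls, 16 held whichever array was left out, 7 rises (Ndufb10, a probe of Ndufa3, Ndufs7, Uqcr11, Atp5d, Atp5mpl and Atp5o) and 9 falls (Ndufa5, Ndufab1, Ndufaf4, Ndufc2, Uqcrc2, Cox6a1, Cox7a2l, Atp5g2 and Atp5pb). The arrays that end the other 14 calls are given with each gene below.

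**Figure D1:**
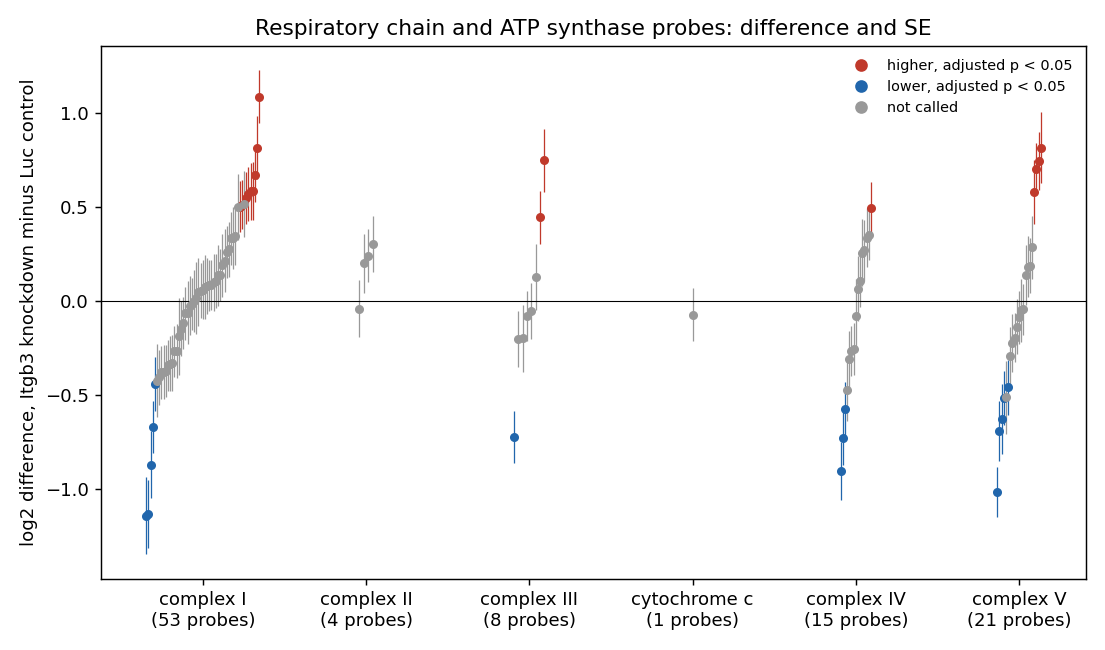
Difference of each tested member probe between Itgb3 knockdown (mean of both hairpins) and the Luc control, on the log2 scale with its SE, sorted within each complex. Complexes I, III, IV and V each hold called probes above and below 0, from -1.14 to 1.09, and the 4 probes of complex II and the probe of cytochrome c are not called.

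Complex I held 53 tested probes of 38 genes, of which 9 rose (16.98%) and 5 fell (9.43%), beside 8.93% and 7.84% of all tested probes. Its core subunits encoded in the nucleus carry the flavin and the iron-sulfur clusters along which electrons run to ubiquinone. Of 5 tested core probes, 2 rose and the other 3 did not pass the test. Ndufs7, whose iron-sulfur cluster hands electrons to ubiquinone, was at 9.06, 8.93 and 8.72 with Itgb3-17 and 9.26 and 8.98 with Itgb3-20, against 8.40, 8.19 and 8.43 in the Luc control. All knockdown arrays lay above all control arrays, a difference of 0.67 ± 0.146 (SE; limma adjusted p = 0.00556). Ndufs8, another iron-sulfur subunit of the same arm, was at 8.97, 9.03 and 8.88 with Itgb3-17 and 8.84 and 8.53 with Itgb3-20, against 8.34, 8.19 and 8.29 in the Luc control, and again the groups did not overlap (0.55 ± 0.138 SE, limma adjusted p = 0.0128). Leaving out Luc control replicate 2 ended this call (0.51, adjusted p = 0.055). Ndufv1, which binds NADH and the flavin, had a difference of 0.10 (95% confidence interval -0.22 to 0.42), Ndufv2 of 0.33 and Ndufs3 of 0.08, and these 3 were not called.

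The accessory subunits, which surround the core and are needed for assembly and stability, made up 38 of the 53 tested probes. They gave 11 of the 14 calls, a share of 28.95% of their probes, against 29.41% over all members. By direction 18.42% rose and 10.53% fell, beside 8.93% and 7.84% of all tested probes. Ndufb10, of the outer membrane arm, had the largest rise of all members, with levels of 6.11, 6.14 and 5.89 with Itgb3-17 and 6.39 and 6.07 with Itgb3-20, against 5.05, 5.10 and 4.998 in the Luc control. All knockdown arrays lay above all control arrays, and the difference was 1.09 ± 0.141 (SE; limma adjusted p = 0.000334), or 2.12-fold. Ndufa3, of the membrane arm, rose on both of its probes, by 0.82 and 0.57. The first of these was at 9.82, 9.98 and 9.54 with Itgb3-17 and 10.12 and 9.51 with Itgb3-20, against 8.93, 9.15 and 8.86 in the Luc control (adjusted p = 0.00404), and leaving out Luc control replicate 1 ended the call of the other (0.52, adjusted p = 0.0535). Ndufa13, known also as a cell death regulator (GRIM-19), rose by 0.59 (adjusted p = 0.0163), Ndufa1, an X-linked subunit of the membrane arm, by 0.50 (adjusted p = 0.0188), and Ndufv3, of the NADH-oxidizing end, by 0.51 (adjusted p = 0.0145). Without Luc control replicate 1 these 3 calls were lost (0.47, 0.43 and 0.47, adjusted p = 0.0873, 0.0831 and 0.0573), and that of Ndufa13 also without replicate 2 (0.54, 0.0659).

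The falls in complex I were of similar size. Ndufc2, an accessory subunit of the membrane arm, was at 7.36, 7.11 and 7.53 with Itgb3-17 and 6.93 and 7.96 with Itgb3-20, against 8.51, 8.80 and 8.28 in the Luc control. Itgb3-20 replicate 5 was the knockdown array nearest to the controls and still below them, and the difference was -1.14 ± 0.205 (SE; limma adjusted p = 0.00174). Ndufab1, the mitochondrial acyl carrier protein that is also a complex I subunit, was at 7.07, 7.08 and 7.15 with Itgb3-17 and 6.62 and 7.36 with Itgb3-20, against 8.41, 7.83 and 8.28 in the Luc control on its called probe (-1.13 ± 0.181 SE, limma adjusted p = 0.000912, 2.19-fold lower). Ndufa5, of the matrix arm, was at 7.88, 8.22 and 8.47 with Itgb3-17 and 7.96 and 8.24 with Itgb3-20, against 9.05, 9.33 and 8.66 in the Luc control (-0.87 ± 0.178 SE, limma adjusted p = 0.00407). In each of these 3 genes the knockdown and control arrays did not overlap.

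The Ndufaf assembly factors help build complex I and are not part of it. Of their 9 tested probes 1 fell, 11.11% beside 7.84% of all tested probes, and the other 8 did not pass the test. Ndufaf4 was at 7.82, 7.67 and 7.83 with Itgb3-17 and 7.15 and 7.48 with Itgb3-20, against 8.21, 8.18 and 8.26 in the Luc control (-0.67 ± 0.138 SE, limma adjusted p = 0.00419). Its second probe differed by -0.42 and was not called for both hairpins together (adjusted p = 0.155). The pseudogene Ndufs5-ps had a difference of 0.09 and was not called.

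Complex II, succinate dehydrogenase, is the only one of the chain that is also an enzyme of the tricarboxylic acid cycle. Its 4 tested probes were not called (limma; 0 at an unadjusted p under 0.05), with differences from -0.04 to 0.30. Sdhc, a membrane anchor, was at 7.82, 7.91 and 7.53 with Itgb3-17 and 7.55 and 7.79 with Itgb3-20, against 7.71, 7.24 and 7.58 in the Luc control, with overlap between the groups. The brightest Sdhb probe, for the iron-sulfur subunit, was at 6.39, 6.25 and 6.23 with Itgb3-17 and 6.26 and 5.91 with Itgb3-20, against 5.99, 5.93 and 5.92 in the Luc control (difference 0.24, 95% confidence interval -0.05 to 0.54), and Itgb3-20 replicate 5 lay below all controls where the other knockdown arrays lay above them.

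In complex III, 8 tested probes gave 2 rises (25%) and 1 fall (12.5%), beside 8.93% and 7.84% of all tested probes. The 2 large core proteins on the matrix side went opposite ways. Uqcrc2 was at 9.45, 9.47 and 9.52 with Itgb3-17 and 9.79 and 9.91 with Itgb3-20, against 10.44, 10.54 and 10.19 in the Luc control, lower on all 5 knockdown arrays (-0.72 ± 0.138 SE, limma adjusted p = 0.00266). Uqcrc1 was at 8.90, 8.91 and 9.09 with Itgb3-17 and 8.95 and 8.76 with Itgb3-20, against 8.40, 8.31 and 8.68 in the Luc control, higher on all 5, and its difference was 0.44 ± 0.143 (SE; limma adjusted p = 0.0433). The call of Uqcrc1 held only without Luc control replicate 3 or Itgb3-20 replicate 5 among the arrays left out in turn, and otherwise its adjusted p was 0.0666 to 0.162. Uqcr11, the smallest subunit, was at 9.94, 9.53 and 9.45 with Itgb3-17 and 9.74 and 9.37 with Itgb3-20, against 9.04, 8.91 and 8.59 in the Luc control (0.75 ± 0.166 SE, limma adjusted p = 0.0062), with no overlap. Cyc1, the cytochrome c1 that passes electrons to cytochrome c, had a difference of -0.08, and the 2 probes of Uqcr10 had -0.05 and -0.20; none of these was called. Cycs, cytochrome c itself, was at 8.34, 8.30 and 8.47 with Itgb3-17 and 8.33 and 8.21 with Itgb3-20, against 8.23, 8.36 and 8.59 in the Luc control. Its groups overlapped, and the difference was -0.07 (95% confidence interval -0.37 to 0.23; 0 calls and 0 at an unadjusted p under 0.05).

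Complex IV had 15 tested probes, of which 1 rose (6.67%) and 3 fell (20%), beside 8.93% and 7.84% of all tested probes. Cox6a1, the widely expressed form of a regulatory subunit, was at 10.67, 10.74 and 10.74 with Itgb3-17 and 10.82 and 10.67 with Itgb3-20, against 11.70, 11.42 and 11.25 in the Luc control. The 5 knockdown arrays lay close together and all below the controls (-0.73 ± 0.144 SE, limma adjusted p = 0.00331). Cox7a2l, a factor that joins complexes III and IV into supercomplexes, was at 6.55, 6.41 and 6.28 with Itgb3-17 and 6.51 and 6.83 with Itgb3-20, against 7.70, 7.22 and 7.41 in the Luc control (-0.90 ± 0.153 SE, limma adjusted p = 0.00127, 1.87-fold lower), again without overlap. The brightest probe, of Cox6b1 at the cytochrome c side of the enzyme, differed by -0.25 (95% confidence interval -0.55 to 0.04) and was not called. Cox4i1, Cox5a and Cox6c had differences of 0.27, 0.11 and 0.34 and were not called.

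Both other calls in complex IV were of forms typical of heart and skeletal muscle. Cox6a2, the muscle form of the Cox6a subunit, was at 5.25, 5.47 and 5.61 with Itgb3-17 and 6.57 and 6.79 with Itgb3-20, against 6.55, 6.74 and 6.61 in the Luc control. It was lower in every Itgb3-17 array than in any other array, by -1.19 against the Luc control (adjusted p = 0.000609), while the Itgb3-20 arrays overlapped the controls (0.05, adjusted p = 0.898). For both hairpins together it fell by 0.57 (adjusted p = 0.0118), a call that ended when Luc control replicate 2 was left out (-0.52, adjusted p = 0.0552) and with the 5 knockdown arrays as a single group (adjusted p = 0.111). Cox7a1, the muscle form of Cox7a, was at 5.37, 5.49 and 5.33 with Itgb3-17 and 6.02 and 6.03 with Itgb3-20, against 5.37, 5.20 and 5.07 in the Luc control. It was higher with Itgb3-20 (0.81, adjusted p = 0.00777; 0.0502 without Itgb3-20 replicate 4) and overlapped the controls with Itgb3-17 (0.18, adjusted p = 0.477), but the difference between the hairpins was not called (0.63, adjusted p = 0.107). The difference for both together was 0.50 (adjusted p = 0.0204), and this call was lost without Luc control replicate 2 (0.49, 0.0606) or 3 (0.43, 0.0775) and with a single knockdown group (0.43, 0.13).

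ATP synthase had 21 tested probes, of which 4 rose (19.05%) and 5 fell (23.81%), beside 8.93% and 7.84% of all tested probes. Within its peripheral stalk, which holds the catalytic head still against the turning rotor, the called probes of different subunits moved apart. Atp5o, Atp5pb and Atp5j also had uncalled probes on the other side of 0, at -0.51, up to 0.18 and at 0.19. Atp5o, the subunit that ties the stalk to the head, was at 9.93, 10.07 and 9.87 with Itgb3-17 and 9.89 and 9.97 with Itgb3-20, against 9.26, 9.09 and 9.37 in the Luc control. All knockdown arrays were higher (0.70 ± 0.137 SE, limma adjusted p = 0.0031). Atp5pb, subunit b of the stalk, was at 6.90, 6.84 and 6.91 with Itgb3-17 and 7.06 and 7.01 with Itgb3-20, against 7.86, 8.13 and 7.93 in the Luc control. All knockdown arrays were lower, and this was the fall of lowest p among members (-1.01 ± 0.135 SE, limma adjusted p = 0.000363, 2.02-fold lower). Atp5h, subunit d, rose by 0.58 (adjusted p = 0.0295) with overlap between the groups, and Atp5j, coupling factor 6, fell by 0.46 (adjusted p = 0.0393). The call of Atp5h was lost without Luc control replicate 2 (0.42, adjusted p = 0.157) or 3 (0.59, 0.0675), Itgb3-17 replicate 1 (0.53, 0.0749) or 2 (0.55, 0.0666), or Itgb3-20 replicate 4 (0.53, 0.0757). That of Atp5j held only without Luc control replicate 3 or Itgb3-20 replicate 5 (adjusted p otherwise 0.068 to 0.149).

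In the catalytic head and central stalk, Atp5b, the catalytic beta subunit and the brightest member probe, was at 13.01, 13.14 and 13.01 with Itgb3-17 and 13.04 and 12.83 with Itgb3-20, against 12.98, 13.04 and 13.09 in the Luc control. Its difference was -0.04 (95% confidence interval -0.33 to 0.24), with overlap. Atp5d, the delta subunit of the central stalk, was at 7.59, 7.71 and 7.61 with Itgb3-17 and 7.77 and 7.62 with Itgb3-20, against 6.94, 6.29 and 7.32 in the Luc control (0.82 ± 0.188 SE, limma adjusted p = 0.00788). The control arrays were far apart, with replicate 2 the lowest, and the call was lost when all probes were tested however dim (adjusted p = 0.0825). Atp5c1, the gamma subunit that forms the shaft of the same stalk, was at 9.84, 9.89 and 10.03 with Itgb3-17 and 10.35 and 10.45 with Itgb3-20, against 10.93, 10.51 and 10.58 in the Luc control (-0.51 ± 0.145 SE, limma adjusted p = 0.023), and leaving out Luc control replicate 1 (-0.39, adjusted p = 0.123), Itgb3-17 replicate 1 (-0.49, 0.0582) or Itgb3-20 replicate 4 (-0.49, 0.0549) ended its call. In the membrane, Atp5g2, a gene of the ring subunit c, was at 5.48, 5.92 and 6.08 with Itgb3-17 and 6.26 and 6.34 with Itgb3-20, against 6.80, 6.55 and 6.90 in the Luc control (-0.69 ± 0.16 SE, limma adjusted p = 0.00797), while Atp5g3, another gene of that subunit, had a difference of -0.13 and was not called. Atp5mpl, a small proteolipid of the membrane part, was at 10.66, 10.97 and 10.71 with Itgb3-17 and 10.65 and 10.62 with Itgb3-20, against 9.74, 9.90 and 10.26 in the Luc control (0.75 ± 0.153 SE, limma adjusted p = 0.00411). Atp5l, subunit g, fell by 0.63 (adjusted p = 0.0302). Its call was kept only without Itgb3-17 replicate 1 or 3 or Itgb3-20 replicate 5, and the adjusted p was otherwise 0.0654 to 0.117.

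**Figure D2:**
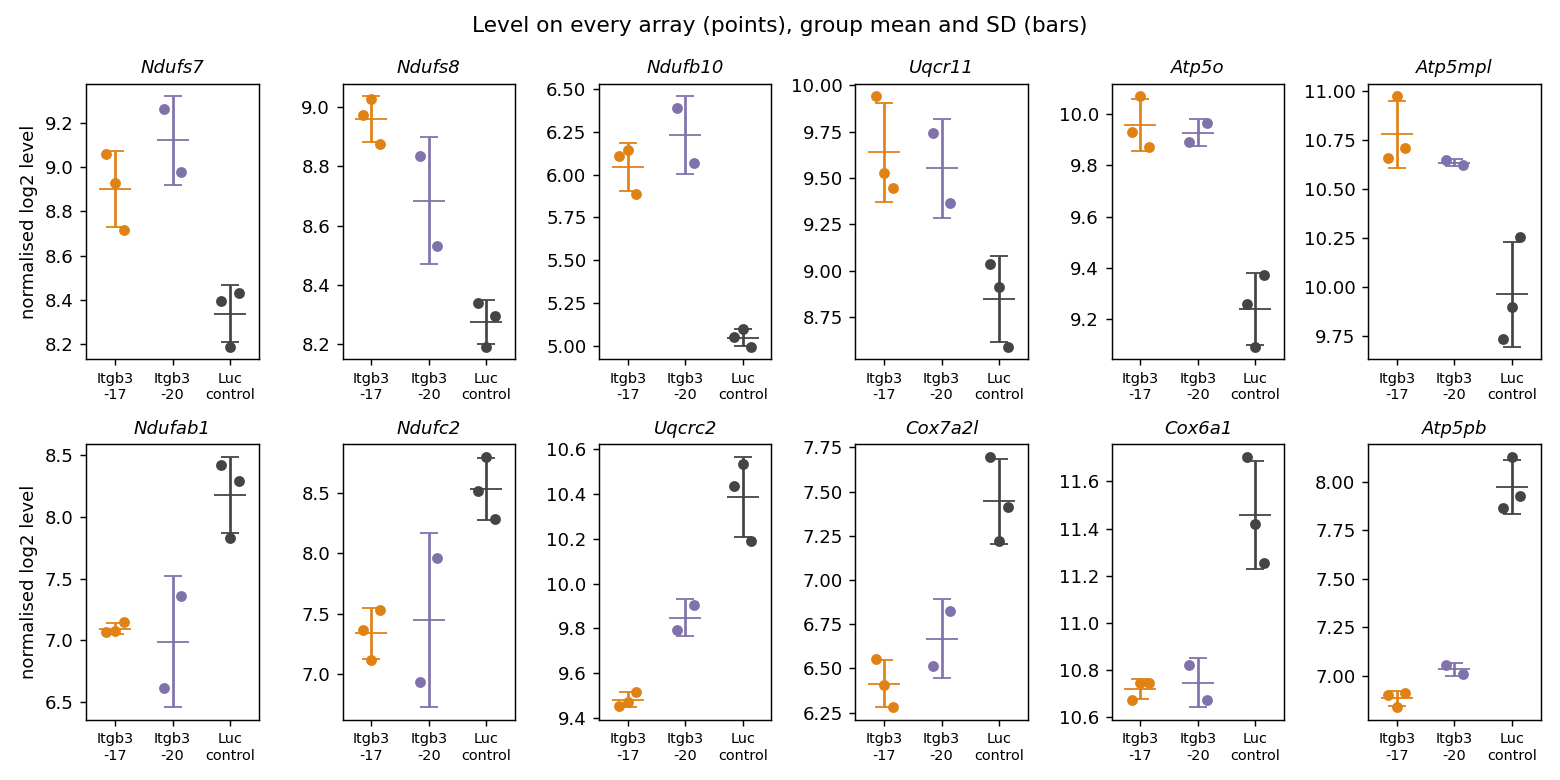
Normalised log2 level on each array (points) for 6 members that rose and 6 that fell, with the mean and SD of each group (3 Itgb3-17, 2 Itgb3-20 and 3 Luc control arrays). In each panel the knockdown arrays do not overlap the Luc control arrays. Each panel has its own axis.

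The hairpins were also set against the Luc control one at a time, with shared controls. With Itgb3-17, 12 member probes rose and 11 fell, where 7.22% and 5.69% of all tested probes did. With Itgb3-20, 11 rose and 9 fell, where 5.71% and 5.27% of all tested probes did. Because both comparisons use the same 3 control arrays, their values are given side by side only. For the 6 members of largest difference with both hairpins averaged, Ndufc2 was at -1.20 with Itgb3-17 and -1.09 with Itgb3-20, Ndufab1 at -1.08 with Itgb3-17 and -1.19 with Itgb3-20, Ndufb10 at 0.99 with Itgb3-17 and 1.18 with Itgb3-20, Atp5pb at -1.09 with Itgb3-17 and -0.94 with Itgb3-20, Cox7a2l at -1.03 with Itgb3-17 and -0.78 with Itgb3-20, and Ndufa5 at -0.82 with Itgb3-17 and -0.91 with Itgb3-20. The Itgb3-20 value of Ndufc2 was -0.57 without Itgb3-20 replicate 4, where its call was lost (adjusted p = 0.224), and -1.60 without replicate 5. Uqcrc2 was at -0.91 with Itgb3-17 and -0.54 with Itgb3-20, Atp5c1 at -0.75 with Itgb3-17 and -0.28 with Itgb3-20 and Atp5g2 at -0.92 with Itgb3-17 and -0.45 with Itgb3-20. Tested directly, Itgb3-20 minus Itgb3-17 gave 1 member called higher, Cox6a2, and 0 called lower (limma), beside 0.248% and 0.285% of all tested probes. At an unadjusted limma p under 0.05, 9 of 102 members were higher and 3 lower. Over all 13315 tested probes, 751 were higher and 822 lower at that unadjusted threshold. Cox6a2 was 1.24 higher with Itgb3-20 than with Itgb3-17 (adjusted p = 0.0062), and this call was lost without Itgb3-17 replicate 2 (1.25, adjusted p = 0.0565). The median difference between hairpins was 0.05 over the members and -0.0052 over all tested probes. Under median scaling it was -0.16 over the members and -0.13 over all tested probes, so most of the shift was array-wide.

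The calls of a single hairpin rested on few arrays. The number of rises with Itgb3-17 was 7 without Luc control replicate 2 and 5 without Itgb3-17 replicate 1 or 2, while those over all tested probes numbered 586, 401 and 448 in these settings and 962 with all arrays. With Itgb3-20 the rises numbered 7, 4, 7, 6, 1 and 6 without Luc control replicate 1, Luc control replicate 2, Itgb3-17 replicate 1, Itgb3-17 replicate 3, Itgb3-20 replicate 4 and Itgb3-20 replicate 5, and the falls 2 without Itgb3-20 replicate 4. Over all tested probes the rises with Itgb3-20 numbered 542, 496, 557, 580, 171 and 861 in these settings and 760 with all arrays, and the falls 217 without Itgb3-20 replicate 4 and 702 with all arrays. Of these calls, 13 of 23 with Itgb3-17 and 2 of 20 with Itgb3-20 held whichever array was left out. Calls made with Itgb3-20 and not for the pair were those of Ndufa10, an accessory subunit (-0.57, adjusted p = 0.0465; 0.0602 to 0.184 when any array was left out), and of the second Ndufaf4 probe (-0.88, adjusted p = 0.028). That probe was at 6.42, 6.51 and 6.13 with Itgb3-17 and 5.91 and 4.98 with Itgb3-20, against 6.25, 6.14 and 6.57 in the Luc control, so its fall lay mainly in Itgb3-20 replicate 5, and the call was lost without that array (-0.41, 0.293) or Luc control replicate 3 (-0.75, 0.0864).

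**Figure D3:**
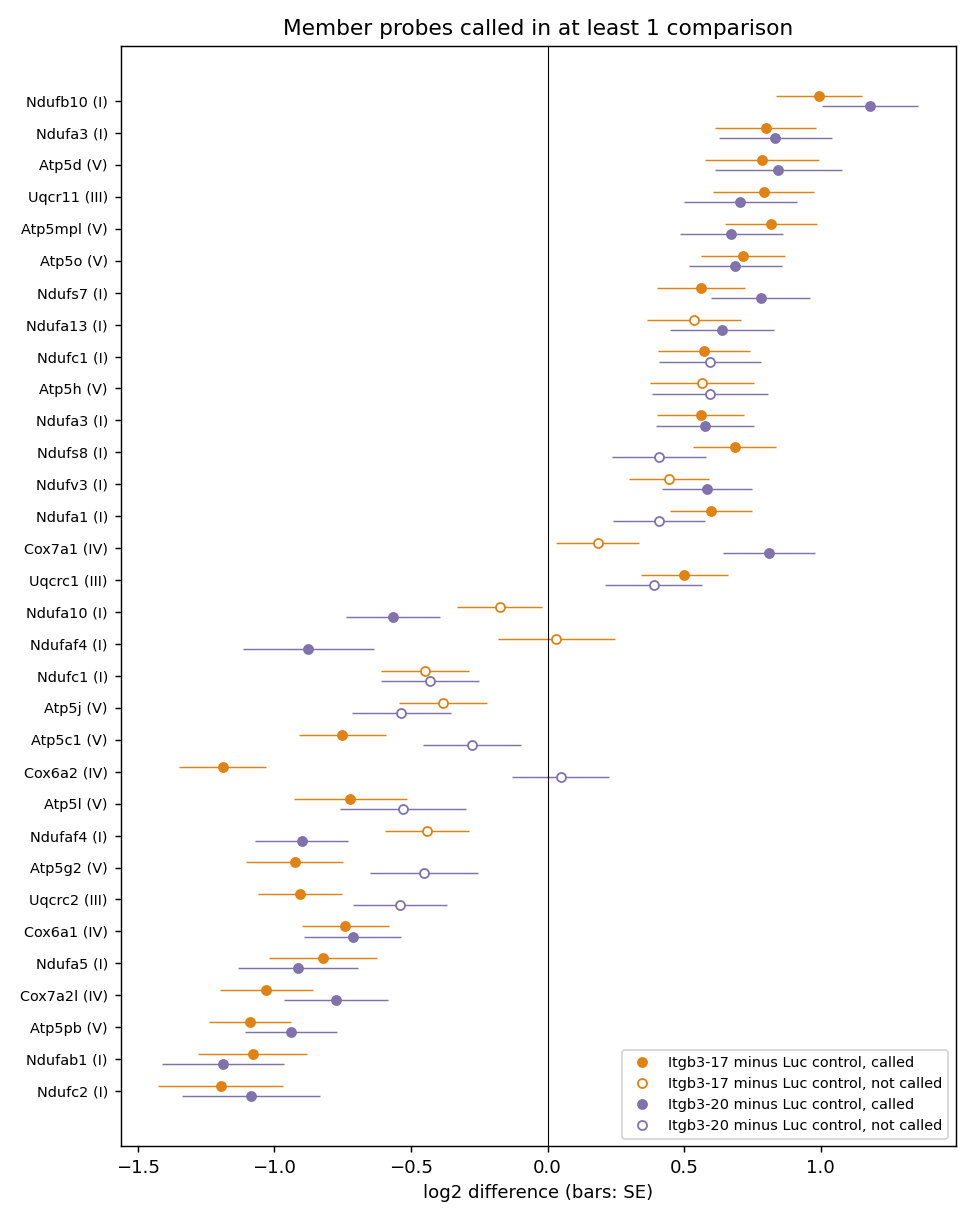
Difference from the Luc control for each member probe called in at least 1 comparison, for Itgb3-17 (orange) and Itgb3-20 (purple) on the log2 scale with SE; filled points are called and the Roman numeral is the complex. Genes with 2 such probes have a row for each. The points of Cox6a2 lie at -1.19 with Itgb3-17 and 0.05 with Itgb3-20.

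Probes of a gene did not always move together. Of 23 member genes with several tested probes, the differences had the same sign in 11 and opposite signs in 12. In 13 of these genes at least 1 probe was called, and in 2 (Ndufa3 and Ndufc1) all were. Ndufc1, of the membrane arm of complex I, had a probe at 10.002, 9.91 and 10.01 with Itgb3-17 and 10.03 and 9.96 with Itgb3-20, against 10.47, 10.64 and 10.17 in the Luc control, which fell (-0.44, adjusted p = 0.0474). Its other probe was at 6.53, 6.38 and 6.28 with Itgb3-17 and 6.41 and 6.43 with Itgb3-20, against 5.53, 5.86 and 6.08 in the Luc control and rose (0.58, adjusted p = 0.015). The fall was kept in 1 of 8 analyses with an array left out, the one without Luc control replicate 3 (adjusted p otherwise 0.0709 to 0.201), and the rise was lost without Luc control replicate 1 (0.44, adjusted p = 0.0888).

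For the other genes the further probes were not called. Atp5pb, at -1.01 on its called probe, had 0.18 and 0.14 on its other 2. Ndufab1 had -1.13 beside -0.06 and -0.06, although both other probes were above background on all 8 arrays. Atp5o had 0.70 and -0.51, Atp5mpl 0.75 and -0.09, Atp5j -0.46 and 0.19, Ndufa5 -0.87 and 0.00, and Ndufb10 1.09 and 0.28. The second probes of Ndufa5, Ndufb10 and Atp5mpl were above background on only 2 arrays. Cox6a1 had -0.73 and -0.26, Ndufv3 0.51 and 0.52, and Atp5l -0.63 and -0.29, each pair on the same side. A call of a gene therefore stands for the probe named.

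**Figure D4:**
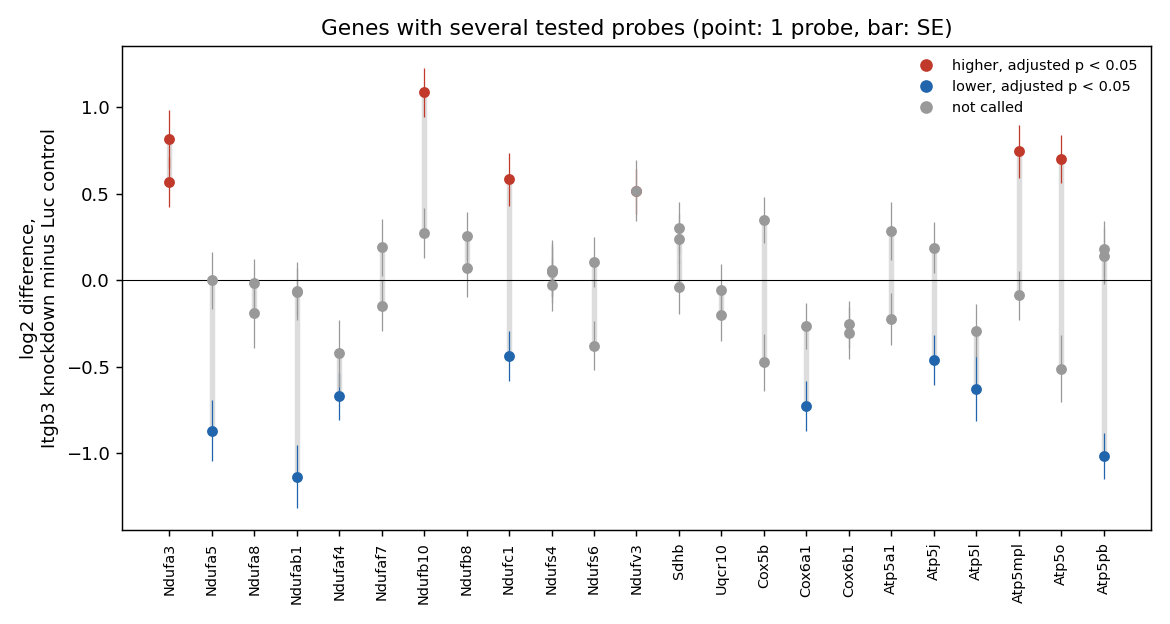
Difference between Itgb3 knockdown (both hairpins) and the Luc control for each tested probe of the 23 member genes with several tested probes, on the log2 scale with SE; grey lines join the probes of a gene. In 12 of the 23 genes the probes lie on both sides of 0, and for Ndufc1 a called rise stands beside a called fall.

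Promoters of nuclear respiratory chain genes are known for sites of NRF1, of ETS factors such as GABP, and of YY1. Promoter windows from RefSeq (GRCm38.p6, 250 bases before to 50 after the gene start) were found for 73 of the 89 genes, and the first window of a gene was searched on both strands. The letters searched were GCGCNTGCG for NRF1, CCGGAAG for ETS/GABPA, AAGATGGC for YY1, TCAAGGTCA for ERR and TGACGTCA for CREB. The ETS and YY1 letters shared bases in 0 member windows. The windows of 3 genes that rose and 3 that fell are shown because they hold these letters, with the motifs in capitals, 5′ to 3′ on the strand of the gene. Uqcr11, Ndufb10 and Ndufs7 rose, and Cox6a1, Ndufaf4 and Atp5pb fell.
Uqcr11 (chr10:80406772-80407071, minus strand): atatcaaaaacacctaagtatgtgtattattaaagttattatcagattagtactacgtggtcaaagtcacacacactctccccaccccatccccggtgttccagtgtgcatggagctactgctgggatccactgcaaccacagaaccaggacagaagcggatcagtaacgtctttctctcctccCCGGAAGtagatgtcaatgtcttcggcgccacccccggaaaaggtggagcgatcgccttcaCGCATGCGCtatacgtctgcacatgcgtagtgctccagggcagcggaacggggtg
Ndufb10 (chr17:24724374-24724673, minus strand): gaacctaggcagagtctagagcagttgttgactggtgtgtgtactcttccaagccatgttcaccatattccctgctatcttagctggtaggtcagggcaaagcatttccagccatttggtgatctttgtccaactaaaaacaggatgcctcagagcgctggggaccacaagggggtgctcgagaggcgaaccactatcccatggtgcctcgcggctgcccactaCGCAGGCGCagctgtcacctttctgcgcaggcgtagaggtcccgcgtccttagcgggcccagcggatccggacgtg
Ndufs7 (chr10:80249199-80249498, plus strand): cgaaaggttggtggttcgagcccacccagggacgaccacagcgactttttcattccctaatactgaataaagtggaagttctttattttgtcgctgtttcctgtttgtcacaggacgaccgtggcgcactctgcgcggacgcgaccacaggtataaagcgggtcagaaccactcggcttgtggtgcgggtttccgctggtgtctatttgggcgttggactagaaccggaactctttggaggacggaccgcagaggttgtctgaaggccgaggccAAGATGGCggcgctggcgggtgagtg
Cox6a1 (chr5:115348909-115349208, minus strand): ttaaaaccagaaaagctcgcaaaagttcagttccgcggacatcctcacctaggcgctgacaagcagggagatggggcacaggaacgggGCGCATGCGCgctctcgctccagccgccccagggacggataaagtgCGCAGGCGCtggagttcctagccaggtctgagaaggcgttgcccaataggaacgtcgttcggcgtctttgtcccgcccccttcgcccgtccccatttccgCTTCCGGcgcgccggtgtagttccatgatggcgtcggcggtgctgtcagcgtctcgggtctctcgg
Ndufaf4 (chr4:24897833-24898132, plus strand): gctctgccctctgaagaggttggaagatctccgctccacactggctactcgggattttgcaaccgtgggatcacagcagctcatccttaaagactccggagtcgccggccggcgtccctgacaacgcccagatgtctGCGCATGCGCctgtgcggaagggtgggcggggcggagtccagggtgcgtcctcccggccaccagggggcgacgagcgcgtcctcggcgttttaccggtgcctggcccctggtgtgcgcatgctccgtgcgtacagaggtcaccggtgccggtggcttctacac
Atp5pb (chr3:105959214-105959513, minus strand): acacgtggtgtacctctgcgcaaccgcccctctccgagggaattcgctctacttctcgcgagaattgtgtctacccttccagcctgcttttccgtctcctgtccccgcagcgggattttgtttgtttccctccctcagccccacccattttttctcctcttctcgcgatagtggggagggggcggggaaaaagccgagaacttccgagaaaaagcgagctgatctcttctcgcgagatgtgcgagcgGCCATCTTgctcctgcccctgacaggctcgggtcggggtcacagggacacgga
Uqcr11 holds the ETS letters and, on the other strand, the NRF1 letters. Ndufb10 holds the NRF1 letters on the other strand, and Ndufs7 the YY1 letters. Cox6a1 holds the NRF1 letters on both strands and the ETS letters on the other strand. Ndufaf4 holds the NRF1 letters on both strands, and Atp5pb the YY1 letters on the other strand.

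Across the 73 windows, the NRF1 letters were in 24 (32.9%), against 8.95% of 17492 first windows of protein-coding genes and 6.31% of all 32851 windows. The ETS letters were in 17 (23.3%, against 11.9% and 8.86%), those of YY1 in 10 (13.7%, against 3.22% and 2.75%), those of CREB in 5 (6.85%, against 2.34% and 1.79%) and those of ERR in 2 (2.74%, against 0.332% and 0.423%). Any of the 5 was in 61.6% of member windows and in 23.1% of protein-coding ones. The median GC content was 59% in member windows and 56.3% in protein-coding ones. The NRF1 letters were in 7 of 14 windows of ATP synthase genes, 10 of 39 of complex I and 1 of 11 of complex IV. By direction, they were in 5 of 13 windows of genes that rose, 5 of 11 of genes that fell and 10 of 38 of tested genes with no call. For the YY1 letters these counts were 2, 1 and 6. These shares are descriptions with no test.

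**Figure D5:**
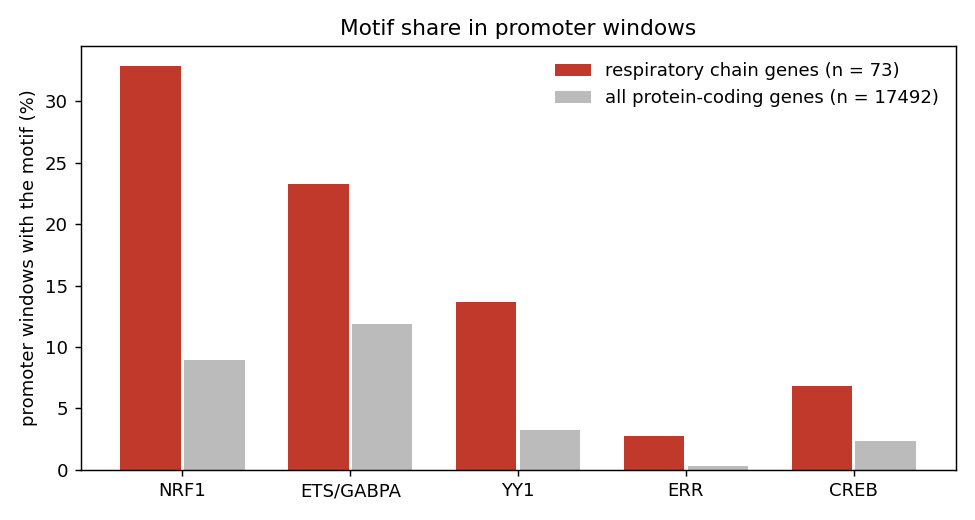
Share of promoter windows that hold each motif, in percent, for 73 respiratory chain and ATP synthase genes and for the first windows of 17492 protein-coding genes. The bars of the respiratory chain genes are the higher ones for all 5 motifs, from 32.9% against 8.95% for NRF1 to 2.74% against 0.332% for ERR.

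Genes that build, feed or regulate the chain were read from 4 further lists, with the probe of highest mean for each gene. Their counts are small, no list was tested as a set, and over all 13315 tested probes 8.93% rose and 7.84% fell. Of 32 tested assembly factors outside the Ndufaf genes, 3 rose and 3 fell. Tmem126a and Tmem126b, related membrane proteins of this list, went opposite ways. Tmem126a was at 6.81, 6.25 and 6.84 with Itgb3-17 and 6.97 and 7.01 with Itgb3-20, against 7.87, 7.56 and 7.76 in the Luc control, a difference of -0.92 ± 0.16 (SE; adjusted p = 0.00146) with no overlap. Tmem126b was at 5.21, 5.04 and 5.18 with Itgb3-17 and 5.24 and 5.30 with Itgb3-20, against 4.31, 4.78 and 4.46 in the Luc control, a difference of 0.69 ± 0.145 (SE; adjusted p = 0.00471) with no overlap, and 1 of the 3 control arrays had it above background. Uqcc1, an assembly factor of complex III, rose by 0.60 ± 0.152 (SE; adjusted p = 0.0131), and this call was lost without Luc control replicate 1 (0.51, adjusted p = 0.0666) or 2 (0.58, 0.0515).

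Of 17 tested genes of the tricarboxylic acid cycle and pyruvate dehydrogenase, 2 rose and 1 fell. Pdha1, the catalytic subunit through which pyruvate enters the cycle, was at 6.34, 6.61 and 7.17 with Itgb3-17 and 6.50 and 7.45 with Itgb3-20, against 8.06, 7.99 and 8.12 in the Luc control, a difference of -1.22 ± 0.212 (SE; adjusted p = 0.00144). Idh3b, a subunit of the NAD-dependent isocitrate dehydrogenase, rose by 0.68 ± 0.133 (SE; adjusted p = 0.00313), and Mdh2, the mitochondrial malate dehydrogenase, by 0.63 ± 0.139 (SE; adjusted p = 0.00577). Of 16 tested genes of other entry points to ubiquinone and of its synthesis, 1 rose and 3 fell. Etfa, the flavoprotein subunit that carries electrons from fatty acid oxidation, was at 9.38, 9.21 and 9.49 with Itgb3-17 and 9.50 and 9.63 with Itgb3-20, against 10.61, 10.71 and 10.31 in the Luc control, a difference of -1.08 ± 0.146 (SE; adjusted p = 0.000377) with no overlap. Coq10b, a ubiquinone-binding protein, fell by 0.64 (adjusted p = 0.00572), and Prodh, the proline dehydrogenase, rose by 0.73 ± 0.175 (SE; adjusted p = 0.0093); the call of Prodh was lost without Luc control replicate 2 (0.56, adjusted p = 0.0627).

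Of 17 tested regulators of mitochondrial gene expression, 1 rose and 4 fell. Gabpb1, a subunit of GABP, was at 4.56, 5.04 and 4.95 with Itgb3-17 and 4.68 and 4.59 with Itgb3-20, against 5.69, 5.25 and 5.43 in the Luc control, a difference of -0.71 ± 0.157 (SE; adjusted p = 0.00583), with 2 of the 3 Itgb3-17 arrays and 0 of the 2 Itgb3-20 arrays above background, so that its level with Itgb3-20 is only an upper bound. Tfb2m, a mitochondrial transcription factor, fell by 0.68 (adjusted p = 0.0132), a call that ended when Luc control replicate 2 (-0.52, 0.0845) or Itgb3-20 replicate 4 (-0.55, 0.0503) was left out. Twnk, the mitochondrial DNA helicase, was not well above background in the Luc control; in knockdown cells it was at least 1.20-fold higher (adjusted p = 0.0109), a bound against the array's detection floor or the probe's own signal, whichever was higher. Of the other factors whose motifs were searched, Nrf1 (-0.42, adjusted p = 0.0637), Yy1 (-0.12) and Esrra (-0.01) were tested and not called. Yy1 was above background on 1 Luc control array, 1 Itgb3-17 array and 0 Itgb3-20 arrays. Its difference therefore lies near the detection floor and cannot show whether its level changed. Neither Gabpa nor a CREB gene was among the 17 tested regulators. Under median scaling the falls of Tmem126a, Pdha1, Etfa, Coq10b, Gabpb1 and Tfb2m kept their sign and lost their calls (adjusted p from 0.0528 to 0.298).

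Markers of cell types were read on the same arrays, where 8.93% of all tested probes rose and 7.84% fell. Of 10 tested granulocyte markers 5 rose, and the other 5 did not pass the test. Of the primary granule genes, Mpo and Elane rose, and Ctsg (0.25) and Prtn3 (0.20) were not called. S100a8 (0.33), Ngp (0.12) and Lcn2 (0.02) were also not called for both hairpins together. With Itgb3-17 alone 3 granulocyte markers rose and with Itgb3-20 alone 6 did, and 0 fell with either. S100a9 (1.67, limma adjusted p = 0.0062) and S100a8 (0.855, 0.031) were higher with Itgb3-20 than with Itgb3-17. The summed granulocyte level was 22500 to 24640 with Itgb3-17 and 29360 to 30170 with Itgb3-20, against 18580 to 20190 in the Luc control. Of 6 tested monocyte markers 1 rose, Lyz2 (0.46, adjusted p = 0.0458), which was at 1.03 with Itgb3-20 (adjusted p = 0.00351) and -0.11 with Itgb3-17 (adjusted p = 0.72), a called difference between the hairpins (1.14, adjusted p = 0.0111). The summed monocyte level was 881 to 994 with Itgb3-17 and 1220 to 1263 with Itgb3-20, against 1005 to 1139 in the Luc control. Of 6 tested genes of the leukaemia stem cell and sort gate list, 1 rose and 1 fell. Fcgr2b rose by 0.51 (adjusted p = 0.0181), and Hoxa9, a target of MLL fusions, fell by 0.81 (adjusted p = 0.0222), with -0.44 for Itgb3-17 and -1.19 for Itgb3-20. Fcgr3 was at 0.43 without a call for both hairpins together, but at 1.04 with Itgb3-20 (adjusted p = 0.00427) and -0.18 with Itgb3-17, a called difference between the hairpins (1.22, adjusted p = 0.0106). Kit was at -0.29 without a call, and Cd34 was not tested. Erythroid markers were below background except for 1 probe on 1 array, and 1 gene each of the B cell, T cell and megakaryocyte lists could be tested, none of them called. The summed granulocyte level thus differed between the groups in which the respiratory chain messages were compared. It adds linear levels, so bright probes such as those of Prtn3 and Elane weigh most, and it does not measure granulocyte content. The part of granulocyte markers in the respiratory chain differences was not tested.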

How the data were processed

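Total RNA was isolated with Trizol, biotin-labelled and hybridised to Illumina bead arrays, per the labels' protocols. The deposited signals are average bead intensities on a linear scale, not normalized, per the file headers, each with a detection p-value deposited by the authors. The authors also deposited log2 values of their own processing, with a median of 6.61 on each array and the rank order of the signals (Spearman 1). Its method, centring and offset are not stated, and it served only as an alternative.

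Signals were corrected by normexp with inferred negative controls (neqc, offset 16), quantile normalized and taken to log2 with limma 3.58.1 in R 4.3.3. A model of 3 groups was fitted to all 8 arrays (lmFit and eBayes, two-sided, Benjamini-Hochberg over the tested probes) and was tested on simulated data. Knockdown is the mean of both hairpin groups. Of the probes, 34885 had 1 symbol, 18 several and 10378 none here. Levels of different probes were compared only to rank probes by brightness, and were added only in the summed marker levels.

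The members and gene lists were chosen with earlier results of these data known. Named were members called in any comparison, the 2 brightest probes of each complex, other probes of called genes and up to 3 genes of lowest p in each further list. Other genes, such as Ndufv1, Cyc1, Cox4i1, Nrf1, Yy1, Esrra and the cell markers, were named after their values were seen. Alternatives covered background correction, scaling, filters, weights, moderation, probe choice, grouping and each array left out.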

Additional observations from a re-analysis of the deposited data

Results flagged for a closer look

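Cox6a2 was the one member whose response differed between the hairpins by a direct test. Itgb3-20 minus Itgb3-17 was 1.24 on the log2 scale (limma adjusted p = 0.0062), with 6.57 and 6.79 in the Itgb3-20 arrays and 5.25, 5.47 and 5.61 in the Itgb3-17 arrays. Median scaling ended the call (1.04, adjusted p = 0.179), as did testing all probes however dim (adjusted p = 0.0532) and leaving out Itgb3-17 replicate 2 (1.25, adjusted p = 0.0565).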

How the results depend on the processing

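Limits come first. The groups have 2 or 3 arrays, the labels do not say whether these are separate animals, and 37 of the 139 probes were too dim to test. Median scaling ended the calls of lower members, as of most lower probes on the array, and left their sign unchanged. No setting turned a call round. For members called in any comparison, 1820 single results kept their side of the threshold, 227 lost a call and 73 gained one, and the cause was not tested. The 1820 also hold results that were not called in the main analysis and stayed uncalled, so they are no measure of how many calls held. Calls in the main analysis numbered 30 for knockdown, 23 for Itgb3-17, 20 for Itgb3-20 and 1 between the hairpins.

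For knockdown minus the Luc control, 23 members were lower with no background correction and with the authors' processed values, and 0 under median scaling. Over all tested probes these falls numbered 1065, 1173 and 79, against 1044 in the main analysis. The median difference was 0.2557 under median scaling (0.1492 over all tested probes), 0.0347 with a stricter filter, 0.0377 with array weights and 0.0635 with 1 probe for each gene. Leaving out an array gave 10 to 16 higher members and medians of -0.007 to 0.0344. Higher calls over all tested probes then ran from 723 to 1374.

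For Itgb3-17, lower members numbered 21 with no background correction and with the authors' values, 1 under median scaling and 18 with trend and robust moderation. Over all tested probes these falls numbered 875, 929, 37 and 905, against 757 in the main analysis. The median was 0.3381 under median scaling (0.2058 over all tested probes), 0.0505 with 1 probe for each gene and 5e-04 with no filter. Leaving out an array gave 5 to 15 higher members and medians of -0.0183 to 0.0253. Higher calls over all tested probes then ran from 401 to 1183. The labels do not say whether replicate numbers pair Itgb3-17 and Luc arrays. Correlations of deviations between arrays of the same number were 0.028, -0.024 and -0.0059, and such low values cannot exclude a pairing. The replicate block gave 15 higher and 11 lower members and a median of 0.0253, beside 15 and 12 for the same 6 arrays without it. Over all tested probes the calls numbered 1256 and 1050 with the block, and 1183 and 977 without it.

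For Itgb3-20, higher members numbered 18 with no background correction and with the authors' values, 3 under median scaling, and 5 with array weights or without a filter. Over all tested probes these rises numbered 857, 917, 167, 414 and 401, against 760 in the main analysis. Lower members numbered 3 with no filter and 0 under median scaling, beside 331 and 42 of all tested probes (702 in the main analysis). The median was 0.0155 with no background correction, 0.2187 under median scaling (0.0886 over all tested probes), 0.0196 with the authors' values and 0.0185 with no filter. Leaving out an array gave 1 to 12 higher and 2 to 9 lower members and medians of 0.0034 to 0.0981. Over all tested probes 171 to 861 were then higher and 217 to 862 lower.

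For Itgb3-20 minus Itgb3-17, there were 0 higher members with no filter or median scaling, and lower ones 1 with trend and robust moderation. Over all tested probes, 0 were higher with no filter or median scaling, against 33 in the main analysis. With trend and robust moderation 106 of all tested probes were lower, against 38 in the main analysis. The median was 0.0301 with no filter, 0.034 with a stricter filter and -0.1574 under median scaling (-0.1295 over all tested probes). Leaving out an array gave 0 to 1 higher and 0 to 1 lower members and medians of 0.0338 to 0.0872. Over all tested probes 2 to 66 were then higher and 0 to 156 lower.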
